A study of Mus musculus with 14 samples.

Results

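Expression of 10 mouse genes of the coenzyme Q pathway was followed in hearts after a knockout of Fam210a in cardiomyocytes. The genes were Pdss1, Coq2, Coq3, Coq4, Coq5, Coq6, Coq7, Coq9, Coq10a and Coq10b. They were taken by symbol from a given list, and all 10 were found among the 53735 gene symbols of both deposited count tables. RNA-seq had been done on flash-frozen hearts of male C57BL/6 mice. The knockout hearts (cKO) had the genotype Fam210afl/fl, alphaMHCMCM/+, so that tamoxifen removes Fam210a in cardiomyocytes. Control hearts had alphaMHCMCM/+ alone, and both groups carried the MerCreMer transgene and had been given tamoxifen. The early hearts, 4 cKO and 4 control, date from about 5 weeks after tamoxifen, a time at which cardiac function was said to be normal. The late hearts, 3 cKO and 3 control, date from about 10 weeks after tamoxifen, a time at which the heart's function was said to be badly impaired. The transgene is driven by the alphaMHC (Myh6) promoter, which is active in cardiomyocytes, while RNA came from hearts with all their cell types. The age of the mice was not stated.

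Coenzyme Q (ubiquinone) is a lipid of the mitochondrial inner membrane that takes electrons from complexes I and II and from other dehydrogenases and hands them to complex III. Its isoprenoid tail is built by Pdss1 together with Pdss2, Coq2 joins the tail to a benzoate ring, and a membrane-bound assembly of Coq proteins then modifies the ring. The heart is among the organs richest in coenzyme Q, and inherited loss of several of these enzymes can cause cardiomyopathy in humans.

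Libraries held 15657298 to 19466469 counts early and 29989076 to 35750964 late, and the 10 genes had 186 to 7226 counts per early heart and 275 to 14147 per late heart. Levels are given as CPM (each gene's share of all counts in the library) scaled with TMM factors within each time, and levels were not compared between times. Fam210a had 65.1, 70.8 and 64.6 CPM in late cKO hearts, against 131, 120 and 134 CPM in late control hearts, and fell by 0.94 on the log2 scale (edgeR adjusted p = 6.5e-05). Early it had 135 to 158 CPM in cKO hearts, against 165 to 178 CPM in control hearts (log2 fold change -0.22, edgeR adjusted p = 0.17), and DESeq2 called it (log2 fold change -0.23, adjusted p = 0.0456). The title of early cKO replicate 4 gives a knockout, but another field gives the control genotype. It was kept as a knockout. Its Fam210a level of 150 CPM lay among the other early cKO hearts and below all early control hearts. None of the 10 genes was called early with it kept, left out or counted as a control. Late cKO replicate 3 stood apart from the other late cKO hearts. Their counts differed from its counts by chi-square values of 97.3 and 91.9 per gene, and from each other by 19.8. Late calls on the 10 genes and the other named pathway genes that change without it are given both ways. Sizes moved for other genes too. The late log2 fold change of Fdxr was 0.95 with it and 0.69 without, and that of Uqcrc1 -0.75 and -0.93.

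Early, none of the 10 genes passed the test across all genes (edgeR quasi-likelihood, Benjamini-Hochberg adjusted p under 0.05), where 0.613% of 13529 genes did (0.0961% lower and 0.517% higher in cKO hearts). All 10 had negative log2 fold changes, cKO over control, with a median of -0.08, and the median of all genes tested was 0.00. Without early control replicate 3 the median was -0.03. The summed level of 8 cardiomyocyte markers was lower in every cKO heart than in any control heart, at 58520 to 63440 CPM in early cKO hearts and 65790 to 72120 CPM in early control hearts, and 7 of the 8 had negative log2 fold changes, with a median of -0.15 and none called. Of the 8, Ttn (-0.005) and Ryr2 (0.012) changed least. Myh6 alone had 24160 to 27350 CPM in early cKO hearts and 28380 to 30210 CPM in early control hearts. The summed levels of the other marker lists overlapped between the early groups. Adipocyte markers summed to 1.65 to 14.8 CPM in early cKO hearts and 0.356 to 1.98 CPM in early control hearts. Only 1 of them, Cfd, was tested early (log2 fold change 3.28, edgeR adjusted p = 0.0502). The part of cell composition in the early values was not tested. At an unadjusted p under 0.05 there were 2 of the 10 genes, Coq2 and Coq10a, where 10.3% of all genes tested passed that threshold, and DESeq2 called none. Coq10a had 170, 189, 196 and 193 CPM in early cKO hearts, against 202, 201, 235 and 209 CPM in early control hearts. Every cKO heart was below every control heart for Coq10a, which was so for 2.68% of the genes tested (2.98% had every cKO heart above), and its log2 fold change was -0.18 (SE 0.07, adjusted p = 0.384). Coq2 had 62.7, 64.4, 65.6 and 73.7 CPM in early cKO hearts, against 70.1, 73.3, 78.1 and 72.4 CPM in early control hearts. The Coq2 groups overlapped, as did those of the other 8 genes, and its log2 fold change was -0.14 (SE 0.06, adjusted p = 0.47). The other 8 genes had early log2 fold changes of -0.13 (Coq7) to -0.01 (Coq4), with adjusted p from 0.581 to 0.979. Leaving out cKO replicate 1, cKO replicate 2, control replicate 3 or control replicate 4 turned the sign for Coq4, and it turned for Coq10b without early control replicate 3.

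Late, 6 of the 10 genes were lower in cKO hearts and 1 was higher, and 3 did not pass the test. Of all 14942 genes tested late, 65% passed, 33.2% lower and 31.8% higher, so the share of 7 in 10 lies near that of the whole transcriptome. The genes that fell were Coq10a, Coq9, Coq4, Coq2, Coq6 and Coq10b, and the gene that rose was Coq3. Pdss1, Coq5 and Coq7 did not pass. The median log2 fold change over the 10 genes was -0.55, and the median of all genes tested was -0.02. The groups did not overlap for the 6 genes that fell and for Coq3, where 35.9% of all genes tested had every cKO heart below every control heart and 34% had every cKO heart above. RNA from whole hearts cannot tell fewer cardiomyocytes from less of a transcript in each of them. Without late cKO replicate 3, Coq5 and Coq7 passed as well, which gives 8 genes lower and 1 higher, where 35.5% of 15367 genes tested in that fit were lower and 34.2% higher.

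**Figure D1:**
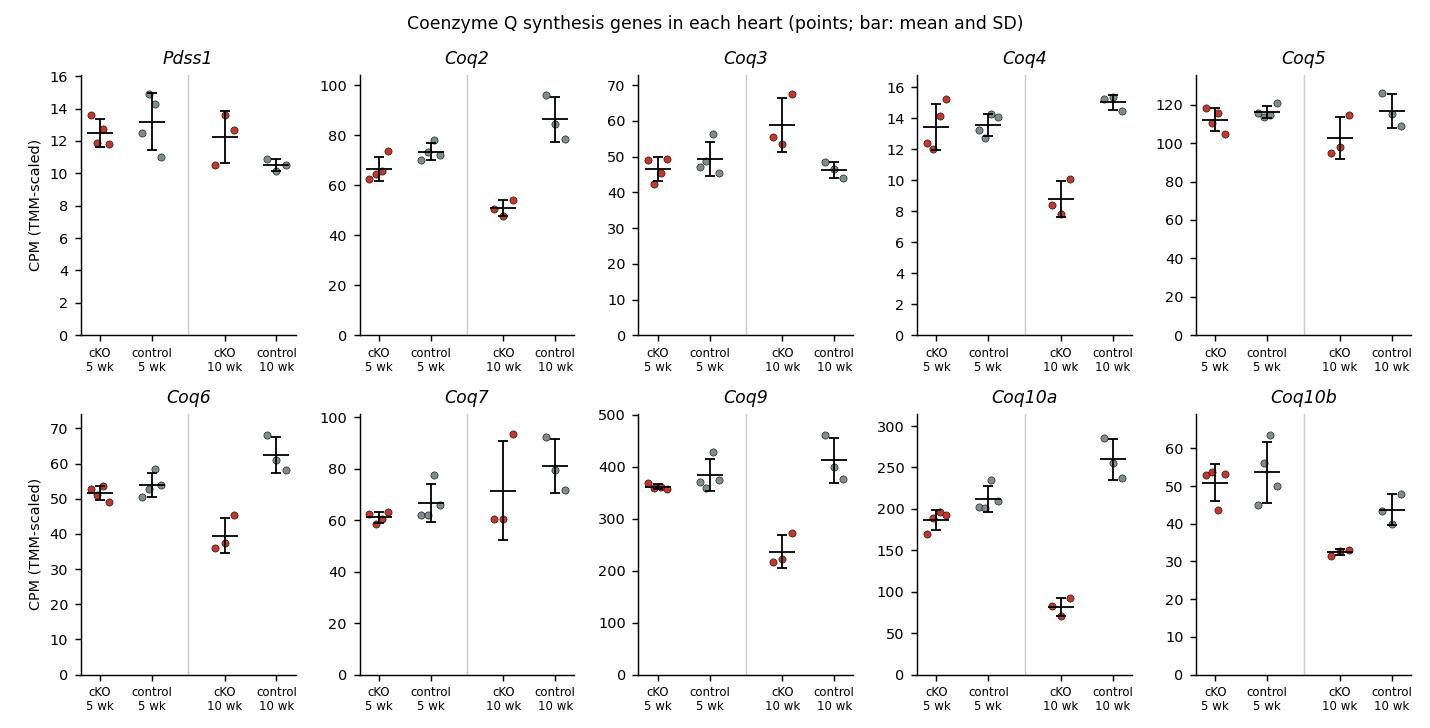
Level of each of the 10 coenzyme Q synthesis genes in every heart, in TMM-scaled CPM on axes that start at 0; each time was scaled alone, points are hearts, and the bar gives the group mean and SD (4 hearts a group at about 5 weeks, 3 at about 10 weeks). At about 10 weeks the cKO hearts (red) lie below all control hearts (grey) for Coq2, Coq4, Coq6, Coq9, Coq10a and Coq10b and above them for Coq3.

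The tail of coenzyme Q is made by a polyprenyl diphosphate synthase of 2 kinds of subunit, Pdss1 and Pdss2. Pdss1 (chr2:22895522-22940266, plus strand, GRCm38) had 10.5, 13.6 and 12.7 CPM in late cKO hearts, against 10.9, 10.2 and 10.5 CPM in late control hearts. Its groups overlapped, with cKO replicate 1 among the controls. Its log2 fold change was 0.22 (95% interval by normal approximation -0.05 to 0.49, adjusted p = 0.192). Its partner Pdss2, which is not among the 10 genes, had 13.96, 12.4 and 13.6 CPM in late cKO hearts, against 24.9, 21.3 and 22.5 CPM in late control hearts. Pdss2 fell in the late cKO hearts to 0.581 times the control level (log2 fold change -0.78, SE 0.12, adjusted p = 3.98e-04). The ratio of Pdss1 to Pdss2 counts was 0.926 ± 0.172 in late cKO hearts and 0.46 ± 0.0199 in late control hearts (SD, n = 3 each). Pdss1 shares 4.57% of its exon length with Abi1 on the other strand, and the libraries do not mark strand, so reads of that stretch cannot be assigned. Abi1 rose late (log2 fold change 0.54, adjusted p = 0.0107).

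Coq2 (chr5:100654723-100675140, minus strand) is the transferase that joins the tail to the ring. It had 50.7, 47.8 and 54.3 CPM in late cKO hearts, against 96.1, 84.5 and 78.7 CPM in late control hearts. All late cKO hearts lay below all controls, and Coq2 stood at 0.589 times the control level (log2 fold change -0.76, SE 0.12, adjusted p = 4.3e-04).

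Among the enzymes that modify the ring, Coq6, a flavin-dependent hydroxylase (chr12:84361657-84373796, plus strand), had 35.9, 37.4 and 45.2 CPM in late cKO hearts, against 68.3, 61.1 and 58.1 CPM in late control hearts. It fell to 0.632 times the control level (log2 fold change -0.66, SE 0.13, adjusted p = 0.00173). Coq6 shares 4.07% of its exon length with Fam161b on the other strand, which also fell late (log2 fold change -0.80, adjusted p = 0.011), and the part of shared reads in the Coq6 value was not tested.

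Coq3, the methyltransferase that acts on the ring's oxygens (chr4:21879673-21912162, plus strand), was the gene that rose. It had 55.5, 53.6 and 67.6 CPM in late cKO hearts, against 48.5, 46.6 and 43.9 CPM in late control hearts. The lowest cKO heart lay above the highest control, and the level was 1.27 times that of controls (log2 fold change 0.35, SE 0.12, adjusted p = 0.0347). The call was not stable. It was lost with library totals in place of TMM factors (log2 fold change 0.27, adjusted p = 0.0805), with no filter on low counts (0.34, adjusted p = 0.0556) and without control replicate 1, 2 or 3 (adjusted p = 0.0542 to 0.121). Without late cKO replicate 3, its highest heart, Coq3 still passed at a smaller size (log2 fold change 0.25, adjusted p = 0.0416).

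Coq5, the methyltransferase that acts on a ring carbon (chr5:115279666-115296972, plus strand), had 94.7, 98.2 and 115 CPM in late cKO hearts, against 126, 115 and 109 CPM in late control hearts. Its groups overlapped through cKO replicate 3, with a log2 fold change of -0.19 (95% interval -0.42 to 0.05, adjusted p = 0.202). Without that heart it was -0.26 (adjusted p = 0.0379).

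Coq7 and Coq9 act as a pair, Coq7 as the di-iron hydroxylase of the last hydroxylation and Coq9 as the lipid-binding protein that Coq7 needs. Coq9 (chr8:94838321-94854895, plus strand) had 216, 222 and 273 CPM in late cKO hearts, against 461, 400 and 377 CPM in late control hearts. All its cKO hearts lay below all controls, at 0.574 times the control level (log2 fold change -0.80, SE 0.14, adjusted p = 7.77e-04). Coq7 (chr7:118509659-118533356, minus strand) had 60.3, 60.6 and 93.5 CPM in late cKO hearts, against 92.2, 79.6 and 71.6 CPM in late control hearts. For Coq7, cKO replicates 1 and 2 lay below all controls and replicate 3 above all of them. Its log2 fold change was -0.18 (95% interval -0.55 to 0.18, adjusted p = 0.41), and -0.41 (adjusted p = 0.00849) without replicate 3. Coq9 shares 1.24% of its exon length with Ciapin1 on the other strand, which rose late (log2 fold change 0.96, adjusted p = 4.93e-04).

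Coq4, a protein that holds the Coq assembly together in yeast and is required for coenzyme Q synthesis (chr2:29787493-29797935, plus strand), had 8.43, 7.82 and 10.1 CPM in late cKO hearts, against 15.2, 15.3 and 14.5 CPM in late control hearts. Its groups were well apart, at 0.585 times the control level (log2 fold change -0.77, SE 0.14, adjusted p = 9.62e-04). Coq4 shares 27.1% of its exon length with Trub2 on the other strand, whose late log2 fold change was 0.28 (adjusted p = 0.0524), and reads of that stretch cannot be assigned to either gene.

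Coq10a and Coq10b are START-domain proteins that bind coenzyme Q, and the yeast counterpart is needed for it to work in respiration rather than for its synthesis. Coq10a (chr10:128363100-128368997, minus strand) had 82.3, 70.3 and 92.4 CPM in late cKO hearts, against 286, 256 and 237 CPM in late control hearts. This was the largest change among the 10 genes, a fall to 0.314 times the control level (log2 fold change -1.67, SE 0.14, adjusted p = 1.08e-05). Coq10b (chr1:55052770-55072702, plus strand) had 31.6, 32.8 and 33.0 CPM in late cKO hearts, against 43.4, 39.9 and 48.0 CPM in late control hearts. The cKO hearts again lay below all controls, at 0.741 times the control level (log2 fold change -0.43, SE 0.11, adjusted p = 0.00826). Coq10b shares 7.14% of its exon length with E330011M16Rik on the other strand.

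**Figure D2:**
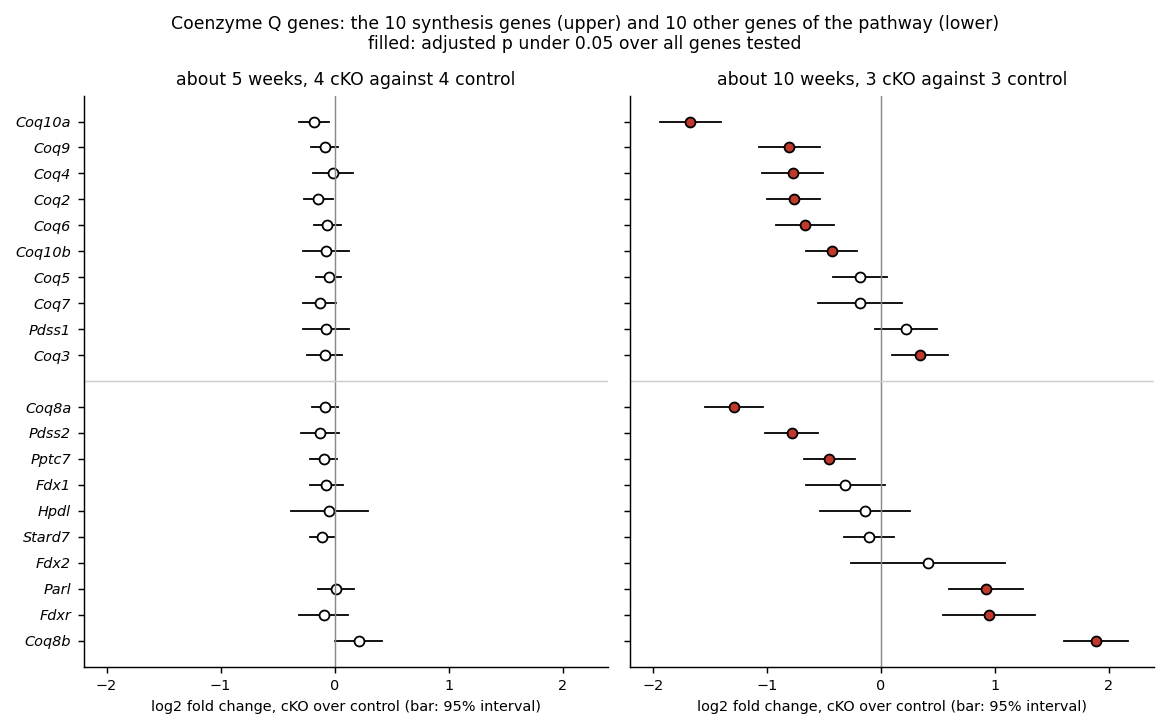
Log2 fold change, cKO over control, with its 95% interval for the 10 synthesis genes (above the grey line) and the 10 other coenzyme Q genes (below it), at about 5 weeks (left) and about 10 weeks (right); filled points passed an adjusted p of 0.05 over all genes tested. At about 5 weeks the points run from -0.18 (Coq10a) to 0.21 (Coq8b), none is filled, and Fdx2 was not tested there. The early intervals of Coq2, Coq10a, Stard7 and Coq8b do not reach 0. At about 10 weeks the values run from -1.67 (Coq10a) to 1.89 (Coq8b). Intervals are normal approximations, which are too narrow for so few hearts.

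The effect of the knockout was compared between the times by a contrast of the late change minus the early change over all 14 hearts. For this difference 61.2% of 14555 genes passed, 31.3% with a lower and 29.8% with a higher late effect, and 6 of the 10 genes did, 5 with a lower and 1 with a higher late effect. The difference was -1.47 for Coq10a (adjusted p = 3.66e-07), -0.74 for Coq4 (adjusted p = 5.8e-04) and -0.70 for Coq9 (adjusted p = 4.62e-04) on the log2 scale. It was -0.61 for Coq2 (adjusted p = 5.45e-04), -0.58 for Coq6 (adjusted p = 0.00126) and 0.45 for Coq3 (adjusted p = 0.013). Unlike the late call, the difference for Coq3 passed under all 21 settings. Coq10b, with -0.34 (95% interval -0.65 to -0.03), missed the threshold after adjustment (adjusted p = 0.0743), and passed with library totals and without early cKO replicate 3, early control replicate 3 or late control replicate 2 (adjusted p of at least 0.0199). Pdss1 (0.31, adjusted p = 0.115) passed without late cKO replicate 1 or early control replicate 4. Coq5 (-0.12, adjusted p = 0.413) and Coq7 (-0.03, adjusted p = 0.894) did not pass under any setting. Time and table cannot be told apart, so the contrast compares the changes within 2 separately made tables.

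Ratios of counts within a heart do not depend on library scaling. At both times 4 pairs were compared, either partners that act together or related genes (8 ratios, exact two-sided permutation test on the log2 ratio). The smallest p that 3 against 3 hearts allow is 0.1. The ratio of Coq10a to Coq10b was 2.61, 2.15 and 2.8 in late cKO hearts, against 6.59, 6.42 and 4.94 in late control hearts. It was lower in every cKO heart than in any control heart (log2 difference of the ratio -1.25). The ratio of Coq7 to Coq9 was 0.279, 0.274 and 0.343 in late cKO hearts, against 0.2, 0.199 and 0.19 in late control hearts (log2 difference 0.60). The ratio of Pdss1 to Pdss2 was 0.752, 1.1 and 0.93 in late cKO hearts, against 0.438, 0.476 and 0.467 in late control hearts (log2 difference 0.99). Coq8a and Coq8b, related UbiB-family proteins that the Coq assembly needs, had a ratio of 9.98, 8.05 and 6.9 in late cKO hearts, against 75.4, 77.1 and 69.4 in late control hearts (log2 difference -3.17). All 4 late pairs were free of overlap and reached the smallest permutation p of 0.1 (0.16 adjusted over the 8 ratios). How often ratios of other gene pairs separate late was not tested. Of single genes tested late, 35.9% had every cKO heart below every control heart and 34% had every cKO heart above. Early, the groups overlapped for all 4 pairs. The nearest to a separation was Coq8a to Coq8b, with 77.8 ± 7.09 in cKO hearts and 95.5 ± 8.11 in control hearts (SD, n = 4 each, exact permutation p = 0.0571, adjusted 0.16).

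**Figure D3:**
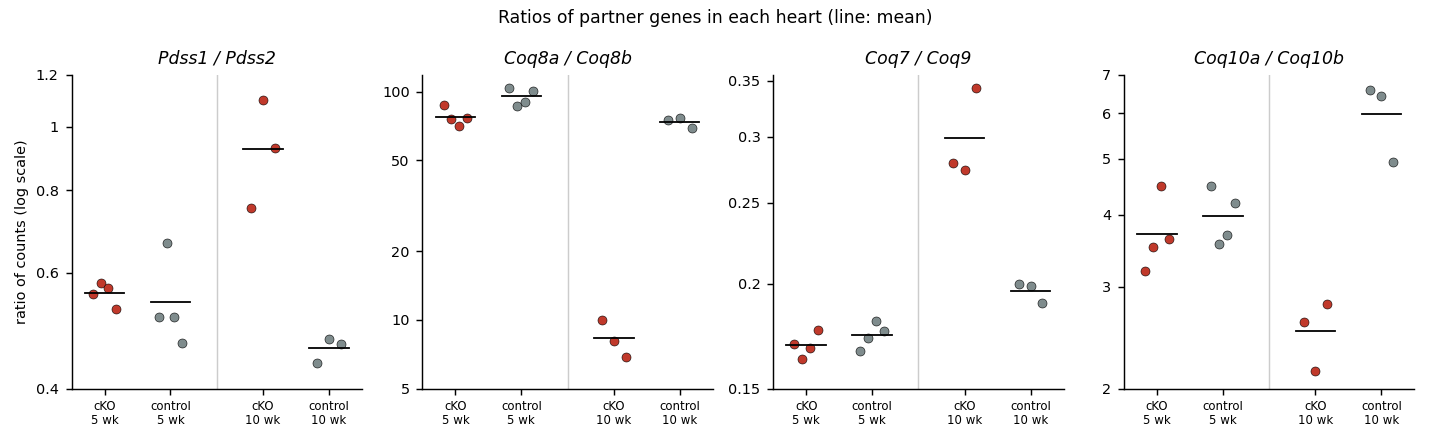
Ratio of the counts of 2 partner or related genes in each heart, on log axes, for Pdss1 to Pdss2, Coq8a to Coq8b, Coq7 to Coq9 and Coq10a to Coq10b; points are hearts (cKO red, control grey), lines are group means. At about 10 weeks no cKO point reaches the control points in any of the 4 panels, and at about 5 weeks the groups overlap in all 4. How often ratios of other gene pairs separate was not tested.

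Levels were set against each other per length, as CPM per kilobase of exon. The length covers all annotated exons of a gene, whichever transcripts the heart uses, so the order between genes is approximate. Of the Coq4 length, 27.1% is shared with Trub2. In late cKO hearts the order was Coq9 (77.5), Coq5 (33.8), Coq10a (31.7), Coq3 (19.7), Coq2 (19.4), Coq6 (12.6), Coq7 (11.1), Coq10b (6.75), Pdss1 (2.89) and Coq4 (2.59 CPM per kilobase, means of 3). Neighbours whose hearts overlapped there were Coq5 and Coq10a, Coq3 and Coq2, Coq6 and Coq7, and Pdss1 and Coq4. In late control hearts the order was Coq9 (135), Coq10a (101), Coq5 (38.5), Coq2 (32.9), Coq6 (19.9), Coq3 (15.5), Coq7 (12.6), Coq10b (9.11), Coq4 (4.42) and Pdss1 (2.48 CPM per kilobase), and only Coq5 and Coq2 overlapped. Coq10a and Coq5, which did not overlap in late control hearts, thus could not be ordered in late cKO hearts, and Coq3 stood above Coq6 in cKO and below it in control hearts. Early, the order of the group means was the same in cKO and in control hearts. It ran from Coq9, with 118 ± 1.57 CPM per kilobase in cKO hearts and 126 ± 10.1 in control hearts, to Pdss1, with 2.94 ± 0.201 in cKO hearts and 3.1 ± 0.416 in control hearts (SD, n = 4 each).

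Among 10 other genes that serve coenzyme Q synthesis, electron supply to it or its transport, 3 rose and 3 fell late, a share near the 65% of all genes that passed, and none of the 9 tested early passed (none at an unadjusted p under 0.05, and none by DESeq2). Coq8b had 27.2, 28.2 and 35.3 CPM in late cKO hearts, against 8.86, 7.76 and 7.89 CPM in late control hearts, and rose to 3.7 times the control level (log2 fold change 1.89, SE 0.14, adjusted p = 6.86e-06). Coq8a moved the other way, with 272, 227 and 244 CPM in late cKO hearts, against 668, 599 and 548 CPM in late control hearts (log2 fold change -1.29, SE 0.13, adjusted p = 3.11e-05). Coq8b shares 8.15% of its exon length with Gm15567 and Coq8a 6.91% with Cdc42bpa, both on the other strand.

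Fdxr, the reductase that feeds the ferredoxin used by Coq6, had 15.7, 14.3 and 24.4 CPM in late cKO hearts, against 8.6, 10.1 and 9.39 CPM in late control hearts (log2 fold change 0.95, adjusted p = 0.00292). Parl, the protease that releases the coenzyme Q carrier Stard7 from mitochondria, rose too (log2 fold change 0.92, adjusted p = 0.00104), with 68.1, 74.4 and 99.7 CPM in late cKO hearts, against 49.0, 39.7 and 39.3 CPM in late control hearts. Stard7 itself had a log2 fold change of -0.11 (adjusted p = 0.427). Pptc7, a mitochondrial phosphatase linked to coenzyme Q, fell by 0.45 (adjusted p = 0.00683) and shares 21.2% of its exon length with Rad9b on the other strand. The ferredoxin gene Fdx1 had -0.31 (adjusted p = 0.151), and -0.52 (adjusted p = 0.00159) without late cKO replicate 3. Hpdl, which serves to make the ring's precursor, had -0.14 (adjusted p = 0.571). Fdx2 had 0.41 (adjusted p = 0.315) at 0.36 to 0.51 CPM in late cKO hearts and 0.25 to 0.39 CPM in late control hearts. Its rows share 72.7% of exon length with Gm38431 on the same strand, so the value is uncertain.

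Genes before and after coenzyme Q in metabolism were described in 3 further lists, none of which had a gene that passed early. At an unadjusted early p under 0.05 there were 1 of 8 mevalonate, 2 of 12 quinone-reducing and 3 of 9 complex III genes tested. Of all genes tested early, 10.3% passed that threshold, and DESeq2 called none of the listed genes. The mevalonate gene under it was Fdps (early log2 fold change 0.94, edgeR adjusted p = 0.274). Its level was 0.768 to 1.04 CPM in early cKO hearts and 0.237 to 0.598 CPM in early control hearts. All 12 quinone-reducing and all 9 complex III genes tested had negative early log2 fold changes, with medians of -0.10 and -0.10. In the mevalonate pathway, which supplies isoprenoid units to the tail, 4 of 9 genes rose late and 2 fell, with a median log2 fold change of 0.43. Of all genes tested late, 31.8% passed higher and 33.2% lower. Fdps, the farnesyl diphosphate synthase, had 1.75, 4.41 and 7.1 CPM in late cKO hearts, against 0.912, 0.817 and 0.57 CPM in late control hearts (log2 fold change 2.52, SE 0.48, adjusted p = 0.00144). Mvd rose by 0.87 (adjusted p = 0.00958) and Ggps1 by 0.43 (adjusted p = 0.00674), and Mvk, the mevalonate kinase, fell by 0.69 (adjusted p = 0.00708).

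Of 12 tested genes whose products reduce coenzyme Q or carry electrons to the enzymes that do, 8 fell late and 2 rose, with a median of -0.55. Sqor, the sulfide quinone oxidoreductase, fell by 1.27 (adjusted p = 3.56e-05), Etfa by 0.94 (adjusted p = 4.78e-04), Sdha of complex II by 0.85 (adjusted p = 2.14e-04) and Etfdh by 0.82 (adjusted p = 3.01e-04), all as log2 fold changes. Among 9 genes of complex III, the acceptor of electrons from coenzyme Q, 8 fell and none rose, with a median of -0.75. Uqcrfs1 fell by 0.997 (adjusted p = 6.51e-04), Uqcrb by 0.84 (adjusted p = 0.00342), Uqcrc1 by 0.75 (adjusted p = 0.00441) and Uqcrc2 by 0.65 (adjusted p = 0.00106). Medians of -0.55 for the 10 synthesis genes and for the reducing enzymes and -0.75 for complex III stand beside -0.02 for all genes tested. The counts of genes that fell or rose stand beside 33.2% lower and 31.8% higher among all genes tested late.

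**Figure D4:**
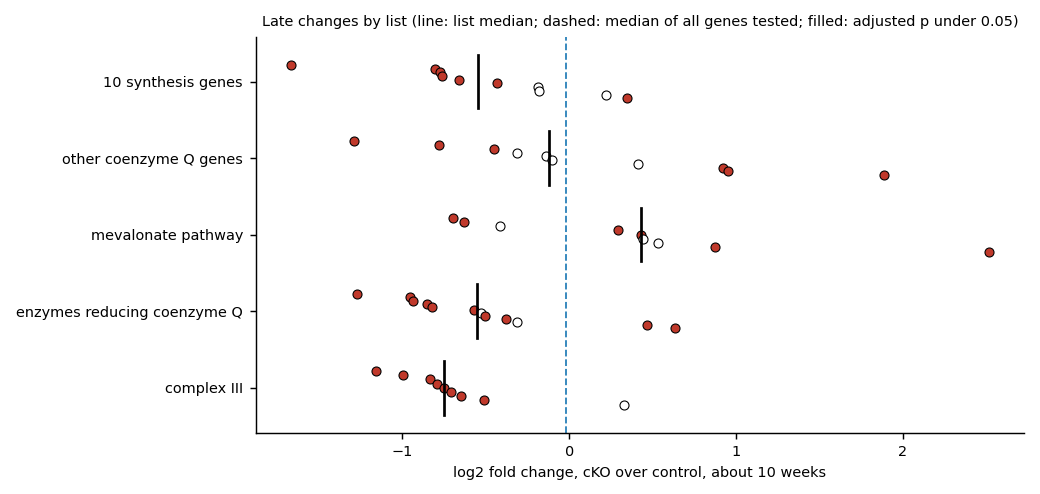
Late log2 fold change, cKO over control, of every tested gene in 5 lists; filled points passed an adjusted p of 0.05 over all genes tested, the black line is the median of the list and the dashed line the median of all genes tested (-0.02). The synthesis genes and the enzymes reducing coenzyme Q have medians of -0.55, complex III of -0.75 and the mevalonate pathway of 0.43.

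Cell type markers moved in the late hearts, where 33.2% of all genes tested passed lower and 31.8% higher. The summed level of 8 cardiomyocyte markers was 60750 to 71070 CPM in late cKO hearts and 66110 to 75300 CPM in late control hearts. Of the 8, 3 (Tnni3, Myl2 and Pln) fell and the other 5 did not pass. Myh6, Tnnt2 and Actc1 had positive log2 fold changes (0.19, 0.39 and 0.14). Myh6 was higher in every late cKO heart than in any late control heart. All 5 endothelial markers fell, with summed levels of 327 to 391 CPM in cKO hearts and 781 to 964 CPM in control hearts. Of 6 macrophage markers 4 fell, with 105 to 132 CPM in cKO hearts and 242 to 249 CPM in control hearts, and of 6 fibroblast markers 3 fell, with 627 to 836 CPM in cKO hearts and 968 to 1263 CPM in control hearts. All 5 red cell markers rose, with 196 to 378 CPM in cKO hearts and 42.7 to 74.3 CPM in control hearts. Adipocyte markers summed to 0.0569 to 4.39 CPM in late cKO hearts and 0.782 to 18.2 CPM in late control hearts, with 1 of 3 tested lower. No marker was without a count in a late group, and the part of cell composition in the changes of the 10 genes was not tested.

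The genes whose levels most resembled Coq10a and Coq3 were looked up over the 14 hearts, after the control mean of each table was subtracted from log2 CPM. All hearts of a time share a table, and late cKO hearts, which differ from controls at most genes, are among the points. For Coq10a these were Tufm, Myl3 and Auh (Pearson r of 0.995, 0.995 and 0.994 among 12546 genes), with late log2 fold changes of -1.66, -2.55 and -0.89. For Coq3 they were Ccs, Tbrg4 and Urm1 (r of 0.97, 0.962 and 0.961), with late log2 fold changes of 0.69, 0.39 and 0.46.

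The promoters of the gene that fell most and of the gene that rose are shown because their late changes point in opposite directions. RefSeq windows on GRCm38.p6, from 250 bases before to 50 after an annotated start, were found for 9 of the 10 genes (11 windows). The 250 bases before the start are given for Coq10a (chr10:128368981-128369230, minus strand, the start nearest to the annotated gene) and Coq3 (chr4:21879396-21879645, plus strand, the first of its 2 starts), with 30 bases around the second Coq3 start (chr4:21879843-21879872, plus strand), 5′ to 3′. Capitals mark a match to the NRF1 motif.
Coq10a: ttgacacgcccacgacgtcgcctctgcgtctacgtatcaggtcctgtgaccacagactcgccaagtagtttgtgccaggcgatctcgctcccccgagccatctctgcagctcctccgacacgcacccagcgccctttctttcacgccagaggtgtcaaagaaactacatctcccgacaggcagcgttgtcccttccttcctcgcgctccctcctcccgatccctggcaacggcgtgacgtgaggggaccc
Coq3: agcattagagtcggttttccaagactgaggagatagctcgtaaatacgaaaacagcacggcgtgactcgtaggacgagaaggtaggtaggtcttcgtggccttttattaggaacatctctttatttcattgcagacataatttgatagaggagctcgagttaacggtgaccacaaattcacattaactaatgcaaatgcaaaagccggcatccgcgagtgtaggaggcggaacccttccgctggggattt
Coq3, second start: gggcggctctGCGCAAGCGCggcagagagc

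The 11 windows were searched on both strands for 4 motifs of regulators of mitochondrial and stress genes. The NRF1 motif, GCGCA and GCGC with 1 base of any kind between them, was found in 1 window, at the second Coq3 start, which lies in the first intron of the annotated Coq3 transcript, and in 4.59% of 32817 mouse windows. The estrogen-related receptor motif TCAAGGTCA (0.424% of windows) and the ATF4 motif TGATGNAA (3.97%) were found in none of the 11. The GC box GGGCGG was found in 3, those of Coq6 and Coq9 and the second of Coq3, and in 35.6% of all windows. None of the 4 motifs was found in either Coq10a window. A match describes letters only, and binding at these windows was not measured.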

How the data were processed

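The authors deposited raw read counts by gene symbol, as 1 table for each time. Per the labels' protocols, the TruSeq RNA kit V2 was used on mRNA, and that kit does not mark strand. Trimmomatic 0.36, STAR 2.6.0c and build GRCm38 are named in the submitters' processing notes. How and with which annotation reads were counted, and whether by strand, is not given in the sources used here.

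Each time was tested alone by edgeR 4.0.16 in R 4.3.3 (glmQLFit and glmQLFTest, the quasi-likelihood test), with TMM factors, filterByExpr (minimum count 10, minimum total count 15) and Benjamini-Hochberg adjustment over all genes tested, called at 0.05. The difference between times was a contrast over all 14 libraries. CPM use TMM-scaled library sizes. The steps were also run on simulated counts with few changed genes, unlike the late data, and the outcome is not given here. Alternatives were RLE size factors, library totals alone (added after seeing the data), DESeq2 1.42.0, no filter, the replicate number as a block, each heart left out, and early cKO replicate 4 left out or counted as a control. Late cKO replicate 3 was left out in the same way.

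The 10 genes and the other lists were chosen with earlier results of these data known. All 10 genes, all other coenzyme Q genes and Fam210a are named, with up to 4 genes of smallest late p per further list and the 3 genes most like Coq10a and Coq3. Gene positions and exon lengths are from GENCODE M21. Coq8a, Coq8b, Fdx2 and Sqor stand in the tables under older symbols. Hearts of a group differed by a chi-square per gene of at least 3.69, so none was a copy of another. Since the labels do not state that the libraries come from different animals, p-values reflect the spread among these libraries, which may be technical.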

Additional observations from a re-analysis of the deposited data

Results flagged for a closer look

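Among the 10 genes, the 10 other coenzyme Q genes and Fam210a, the late effect differed from the early effect for 13, by the contrast over all hearts. The 3 further lists were left out of that count, and there 5 mevalonate, 8 quinone-reducing and 7 complex III genes also differed. On the log2 scale the late minus early difference was -0.61 for Coq2, 0.45 for Coq3, -0.74 for Coq4, -0.58 for Coq6, -0.70 for Coq9 and -1.47 for Coq10a. Among the other coenzyme Q genes it was -0.64 for Pdss2, -1.19 for Coq8a, 1.69 for Coq8b, -0.34 for Pptc7, 0.92 for Parl and 1.07 for Fdxr, and it was -0.70 for Fam210a itself. Over all genes tested, 61.2% differed in this way.

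In 3 of 50 early groups of 4 values, 1 heart stood apart from the other three, and chance alone sets about 1 in 20 groups apart. Early cKO replicate 3 was low for Coq10b, at 43.7 CPM where the other cKO hearts had 53.1 to 53.8 CPM. The same heart was high for Fdx2 at 0.349 CPM, and early control replicate 2 was high for Fdx2 at 0.255 CPM, levels too low for this gene to be tested early.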

How the results depend on the processing

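The late falls of Coq2, Coq4, Coq6, Coq9, Coq10a and Coq10b passed under all 13 late settings. The early count of genes called was 83, and it was 176 with DESeq2, 388 with no filter, 162 with early cKO replicate 4 as a control and 45 to 181 with single hearts left out. The number of the 10 genes called higher late was 1, and 0 with library totals, with no filter and with the replicate block, and 0 to 1 with single hearts left out. For the difference between times that number was 1 to 2 with single hearts left out. Mevalonate genes called lower late numbered 2, but 1 with RLE size factors and 1 with the replicate block (1 to 2 with hearts left out). Quinone-reducing genes called higher late numbered 2, but 1 with library totals and with the replicate block (1 to 2 with hearts left out), and complex III genes called lower were 5 to 8. The early median of the 10 genes was -0.0322 without early control replicate 3. The sign turned early for Coq4 (-0.0763 to 0.0374 with hearts left out), Coq10b (-0.153 to 0.0147), Coq5 (0.00902 with early cKO replicate 4 as a control) and the log2 ratio of Pdss1 to Pdss2 (-0.00604 to 0.162). It turned for Hpdl late (-0.235 to 0.0168 with hearts left out) and for the difference of Coq7 (0.00633 with RLE size factors, 0.00662 with DESeq2, 0.0109 with no filter, -0.28 to 0.11 with hearts left out). The cause was not tested. Same-numbered hearts did not deviate together (correlations of -0.09 to -0.04 early and -0.51 to -0.06 late). No sign that the numbers pair hearts was seen, though 3 or 4 hearts a group cannot exclude it. With the replicate block Coq3 had a late log2 fold change of 0.34 (adjusted p = 0.113), and no other late call on the 10 genes was lost.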
